A study of Arabidopsis thaliana with 6 samples.

Results

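Ferritin genes and regulators of iron homeostasis were examined in Arabidopsis thaliana Col-0 seedlings that overexpress GRF5, set against wild-type Col-0 seedlings. The genes were taken by locus code: the ferritin genes FER1, FER2, FER3 and FER4, the Ib bHLH transcription factor genes bHLH38, bHLH39, BHLH100 and BHLH101, the ubiquitin ligase gene BTS and the transcription factor gene PYE. Of these 10 genes, 8 had a row among the 20777 loci of the expression table, and bHLH38 (AT3G56970) and BHLH100 (AT2G41240) were not analysed here. RNA came from the vegetative part of seedlings at growth stage 1.03, raised in vitro on MS medium at 22 °C in long days (16 h light, 8 h dark), and was hybridised to ATH1 oligonucleotide arrays. The 2 groups were wild type and 35S::GRF5, in which the viral 35S promoter, active in most tissues, drives the growth-regulating factor GRF5, a transcription factor that promotes leaf growth. Each group had 3 arrays, called biological repeats in the labels, which do not say whether the seedlings of a repeat were pooled or how many independent lines were used. Both groups had the same ecotype, medium and stage, and no iron treatment is given in the labels.

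Iron is needed for photosynthesis, respiration and chlorophyll synthesis, and free iron is toxic because it drives the formation of hydroxyl radicals. Ferritins are protein shells that store iron as a mineral core, in plants mainly inside plastids, and their transcripts build up when iron is in excess. Under iron shortage the opposite set is switched on: the Ib bHLH factors activate uptake genes together with FIT, PYE restrains part of the response, and BTS, which binds iron, marks upstream bHLH activators for degradation.

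In these arrays the ferritin genes expressed in leaves, FER1, FER3 and FER4, had higher means in 35S::GRF5, and the shortage-induced genes bHLH39, BHLH101, PYE and BTS had lower means. The remaining ferritin gene, FER2, differed by -0.10. Of the 8 differences 3 were positive and 5 negative, and over all loci 43.8% were negative. None of the 8 genes passed limma's test over all loci at an adjusted p of 0.05, a threshold passed by 0.77% of all loci. These were 59 loci (0.284%) that were higher and 101 (0.486%) that were lower in 35S::GRF5, or 45 and 126 with each array centred on its median and 99 and 87 without 35S::GRF5 replicate 1. At an unadjusted p under 0.05 there were 2 genes with a higher mean, FER1 and FER4, and 2 with a lower mean, bHLH39 and BHLH101; of all loci, 15.5% reached the same p, 9.49% higher and 5.97% lower. The count of 4 became 1 without wild type replicate 1 and 1 without 35S::GRF5 replicate 1. Over all loci, 3212 reached that p with all arrays, and 2300 and 3298 in those fits. The groups did not overlap for 1 of the 8, FER1, which was higher. Over all loci they did not overlap for 21.7%, 13.2% higher and 8.45% lower, so 1 of 8 is close to the background. Fewer arrays separate more easily: the groups were apart for 4 of 8 genes if wild type replicate 2 or 3 was left out, and for 6 if 35S::GRF5 replicate 2 was. The share over all loci in those fits is not given here, so these counts cannot be read as a result about the 8 genes. The median difference of the 8 was -0.13 log2 units, beside 0.02 over all loci. The RNA came from whole vegetative parts, so fewer cells of a type and less RNA per cell cannot be told apart.

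**Figure D1:**
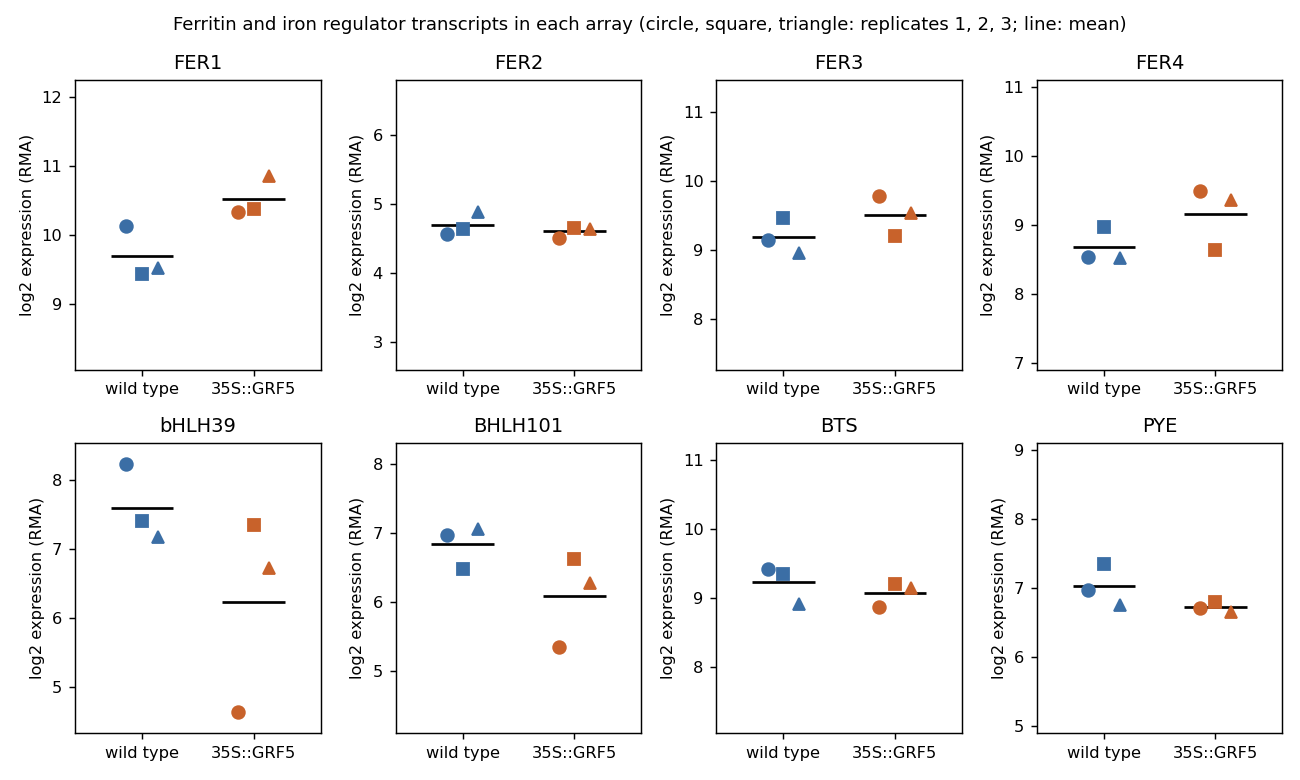
Log2 expression (RMA) of the 8 genes in each array, wild type in blue and 35S::GRF5 in orange, with replicates 1, 2 and 3 as circle, square and triangle and the group mean as a line; every vertical axis spans the same number of log2 units. The 2 groups are separate for FER1 alone, and bHLH39 spreads from 4.65 to 7.35 within 35S::GRF5.

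The arrays were alike overall. Array medians spanned 6.38 to 6.39 among wild-type arrays and 6.41 to 6.43 among those of the line, and correlations across loci were 0.993 to 0.997 within groups and 0.990 to 0.995 between them. GRF5 itself (AT3G13960), which checks the labels, lay between 4.26 and 4.75 in wild type and between 11.3 and 12.1 in 35S::GRF5. The array farthest from its group mean was 35S::GRF5 replicate 1, with a root mean square deviation of 0.162 log2 units over all loci, against 0.101 to 0.138 in the other 5. The leaf markers CA1 and RCA, the 2 of 6 listed that had a row, lay between 13.5 and 14.2 in all arrays. Markers of flowers (4 of 4 measured) and seeds (5 of 5) lay between 3.37 and 4.76. Of 9 root markers measured, 8 lay between 3.61 and 5.54. The other, PYK10, read 11.2, 11.1 and 11.2 in wild-type replicates 1, 2 and 3 and 11.3, 11.5 and 11.8 in those of 35S::GRF5, a difference of 0.35 with no overlap (adjusted p = 0.209), and its part in the results below was not tested.

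FER1 (AT5G01600, chromosome 5) encodes a plastid ferritin of leaves. In replicates 1 to 3 its log2 level was 10.1, 9.44 and 9.53 for wild type, against 10.3, 10.4 and 10.9 for 35S::GRF5; values of other genes follow the same order of replicates. All 3 values of the overexpressing line lay above all 3 wild-type values, and wild type replicate 1 was close to the lowest array of the line. The means were 9.70 ± 0.37 and 10.5 ± 0.29 (SD, n = 3), a difference of 0.83 log2 units (95% interval 0.39 to 1.26), or 1.77-fold (1.31 to 2.39). This had the smallest p of the 8 genes, 0.0018, ranked 409 among all loci, with an adjusted p of 0.0913. The difference stayed between 0.66 and 1.04 whichever array was left out, with adjusted p from 0.0801 to 0.242.

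FER4 (AT2G40300, chromosome 2), a leaf ferritin found in plastids and also in mitochondria, read 8.53, 8.97 and 8.52 in wild type and 9.48, 8.64 and 9.36 in 35S::GRF5. Replicates 1 and 3 of the line were above every wild-type array, and replicate 2 lay inside the wild-type range. Its difference was 0.48 (0.01 to 0.95; 1.40-fold), with an adjusted p of 0.309. Without 35S::GRF5 replicate 2 it was 0.75 (adjusted p = 0.0992), and without 35S::GRF5 replicate 1 it was 0.32.

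FER3 (AT3G56090, chromosome 3), also a plastid ferritin of leaves, read 9.14, 9.46 and 8.95 in wild type and 9.78, 9.20 and 9.54 in 35S::GRF5. It had the same order of arrays as FER4 within the line, highest in replicate 1 and lowest in replicate 2, and within wild type both were highest in replicate 2. The difference of 0.32 (-0.05 to 0.69; adjusted p = 0.395) was 0.18 without 35S::GRF5 replicate 1 and 0.20 without wild type replicate 3. FER1 did not share this order: its lowest wild-type value was in replicate 2 and its highest value in 35S::GRF5 replicate 3.

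FER2 (AT3G11050, chromosome 3) encodes the ferritin of seeds. It read 4.58, 4.64 and 4.90 in wild type and 4.52, 4.66 and 4.64 in 35S::GRF5, a difference of -0.10 (-0.33 to 0.14; adjusted p = 0.715). Wild type replicate 3 was the highest array and the other 5 lay close together; without it the difference was -0.0016. With no detection calls in the deposited values, such low readings cannot be separated from background.

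Of the 8 genes, bHLH39 had the largest mean difference, and both Ib bHLH factors varied more within 35S::GRF5 than the other 6 did. bHLH39 (AT3G56980, chromosome 3), which with FIT activates iron uptake genes, read 8.23, 7.41 and 7.17 in wild type and 4.65, 7.35 and 6.73 in 35S::GRF5. Replicate 1 of the line was far below all other arrays, and replicate 2 lay within the wild-type range. At 4.65, replicate 1 lay among the readings of FER2 (4.52 to 4.90), which cannot be separated from background. The size of the mean difference depends in part on this low value, so the fold is uncertain. The difference was -1.36 (-2.63 to -0.08; 2.56-fold lower), with an adjusted p of 0.293. Without 35S::GRF5 replicate 1 it was -0.56 (adjusted p = 0.39), and without 35S::GRF5 replicate 2 it was -1.91 (adjusted p = 0.185). The gene has bHLH38 as its direct neighbour on the chromosome, and the factors of this group resemble each other in sequence; which probes stand behind the bHLH39 value, and whether they also read its relatives, the sources used here do not state.

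BHLH101 (AT5G04150, chromosome 5), a factor of the same group, read 6.97, 6.47 and 7.06 in wild type and 5.34, 6.62 and 6.27 in 35S::GRF5. As with bHLH39, replicate 1 of the line was the lowest array and replicate 2 lay within the wild-type range. The difference was -0.76 (-1.39 to -0.12; 1.69-fold lower), with an adjusted p of 0.238, and it was -0.39 without replicate 1 of the line and -1.03 without its replicate 2. Both bHLH39 and BHLH101 thus kept a lower mean without the array in which they were lowest, but a much smaller difference.

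**Figure D2:**
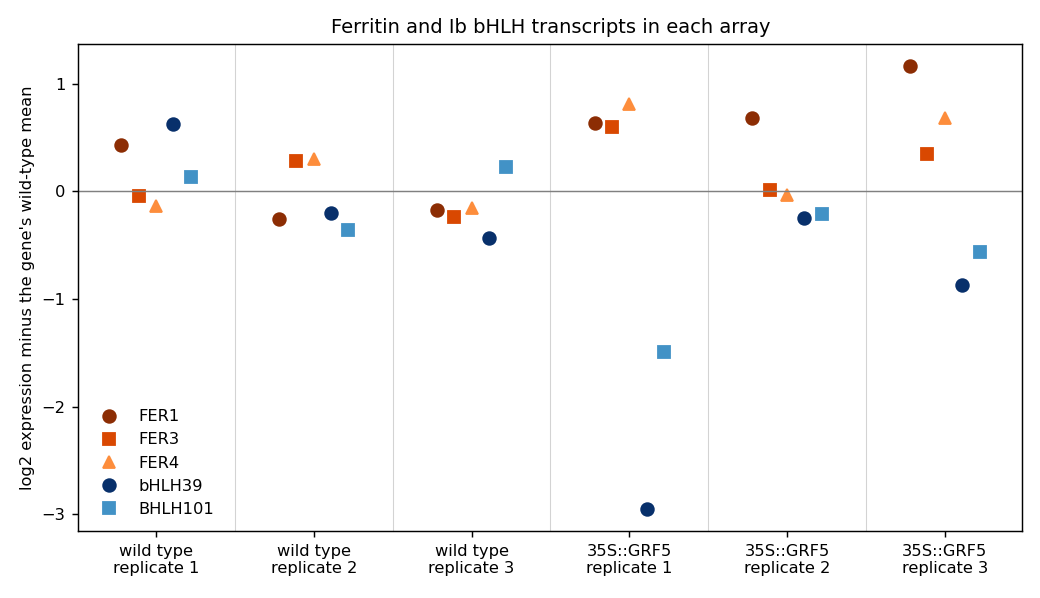
Log2 expression of FER1, FER3, FER4, bHLH39 and BHLH101 in each array, given as the distance from the gene's wild-type mean (0 on the vertical axis). In 35S::GRF5 replicate 1 bHLH39, at 4.65, and BHLH101, at 5.34, are lowest while FER3 and FER4 are highest, and in 35S::GRF5 replicate 2 all but FER1 lie inside the wild-type range.

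PYE (AT3G47640, chromosome 3) encodes a bHLH repressor that is itself induced by iron shortage. It read 6.97, 7.35 and 6.75 in wild type and 6.72, 6.80 and 6.65 in 35S::GRF5. The values of the line fell in a narrow band (SD 0.08, against 0.31 in wild type) that overlapped the lowest wild-type array. The difference was -0.30 (-0.62 to 0.01; adjusted p = 0.342) and became -0.14 without wild type replicate 2. BTS (AT3G18290, chromosome 3), the iron-binding ubiquitin ligase that acts against bHLH activators of the shortage response, read 9.42, 9.34 and 8.91 in wild type and 8.86, 9.20 and 9.14 in 35S::GRF5. The groups overlapped over most of their range, and the difference was -0.16 (-0.49 to 0.17; adjusted p = 0.656), or -0.06 with replicate 1 of the line left out and -0.32 (-0.60 to -0.03; adjusted p = 0.367) without wild type replicate 3.

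Of the 8 genes, 4 had their lowest value in 35S::GRF5 replicate 1 (FER2, bHLH39, BHLH101 and BTS) and 2 their highest (FER3 and FER4). Over all loci that array was lowest for 20.3% and highest for 25.9%. Without 35S::GRF5 replicate 2, in contrast, the difference of FER3 was 0.47, farther from 0, as were those of FER4, bHLH39 and BHLH101 given above. The difference of FER1 was 0.92 without replicate 1 of the line and 0.90 without its replicate 2.

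**Figure D3:**
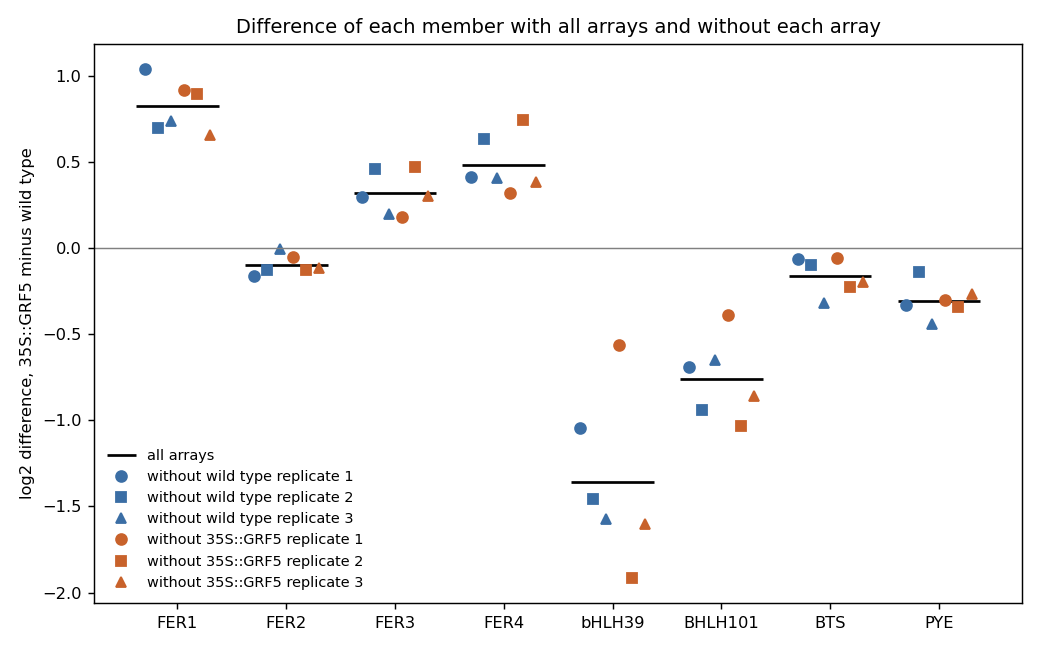
Log2 difference, 35S::GRF5 minus wild type, of each of the 8 genes with all arrays (black line) and without each array in turn (blue: a wild-type array left out, orange: a 35S::GRF5 array left out; circle, square and triangle for replicates 1, 2 and 3). No difference changes sign, that of FER1 stays between 0.66 and 1.04, and that of bHLH39 runs from -1.91 to -0.56.

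The wider pathway was described through lists of other iron genes, 75 in all, of which 70 had a row. Of these, 0 were called higher and 1 was called lower over all loci; the median difference was 0.0028, with 35 positive and 35 negative. At an unadjusted p under 0.05 there were 3 higher and 8 lower, 11 of 70 in all, a pooled share close to the 15.5% of all loci. By direction, 9.49% of all loci were higher and 5.97% lower at that p. The 70 thus held fewer higher and more lower genes than those shares, and these counts were not tested.

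Of 18 measured genes of iron uptake and long-distance transport, 1 fell and 15 had a negative difference, with a median of -0.19 beside 0.02 over all loci. Over all loci 0.486% were called lower and 43.8% had a negative difference. Of the 15, IRT1, IRT2, NAS2 and ABCG37 (wild-type means 3.64, 3.71, 4.57 and 4.11) were too low to be separated from background. Their differences were -0.06, -0.09, -0.01 and -0.02. AT3G13610, as low at 3.64, had a positive difference of 0.10. The called gene was NAS3, one of the nicotianamine synthase genes, whose product chelates iron and other metals for movement through the plant. NAS3 read 6.07, 5.60 and 5.82 in wild type and 4.90, 4.84 and 5.26 in 35S::GRF5, with no overlap. It fell by 0.83 on the log2 scale (95% interval of the difference -1.15 to -0.50; 1.77-fold lower), with an adjusted p of 0.0368. The values of the line were low, within the 3.61 to 5.54 of the 8 low root markers. Without detection calls their distance from background is not known, so the fold is uncertain. The call was lost when wild type replicate 1 (adjusted p = 0.154), wild type replicate 3 (0.104), 35S::GRF5 replicate 1 (0.0736) or 35S::GRF5 replicate 2 (0.119) was left out, while the difference itself stayed between -0.95 and -0.71.

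In all, 5 genes of this list had a lower mean at an unadjusted p under 0.05, as did 5.97% of all loci: NAS3, OPT3, ZIF1, NRAMP1 and YSL1, the last 4 named after their values were seen. OPT3, which loads iron into the phloem and passes the shoot's iron status to the root, read 9.45, 9.69 and 9.75 in wild type and 8.67, 9.15 and 8.99 in 35S::GRF5. The groups were separate, and the difference of -0.69 (-0.997 to -0.39) had an adjusted p of 0.0555. OPT3 passed the threshold under 6 of the alternatives tried, with each array centred on its median among them (0.0391), and missed it whichever array was left out (0.0662 to 0.171). The difference was -0.47 for ZIF1, a vacuolar transporter of nicotianamine (adjusted p = 0.101), -0.50 for NRAMP1, a plasma membrane iron and manganese transporter (adjusted p = 0.242), and -0.40 for YSL1, which moves metal-nicotianamine complexes (adjusted p = 0.174). Of the 18 genes, 10 had their lowest value in 35S::GRF5 replicate 1, as did 20.3% of all loci. The root uptake genes FIT and IRT1 lay between 3.37 and 4.72 in all arrays, too low to be separated from background here.

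**Figure D4:**
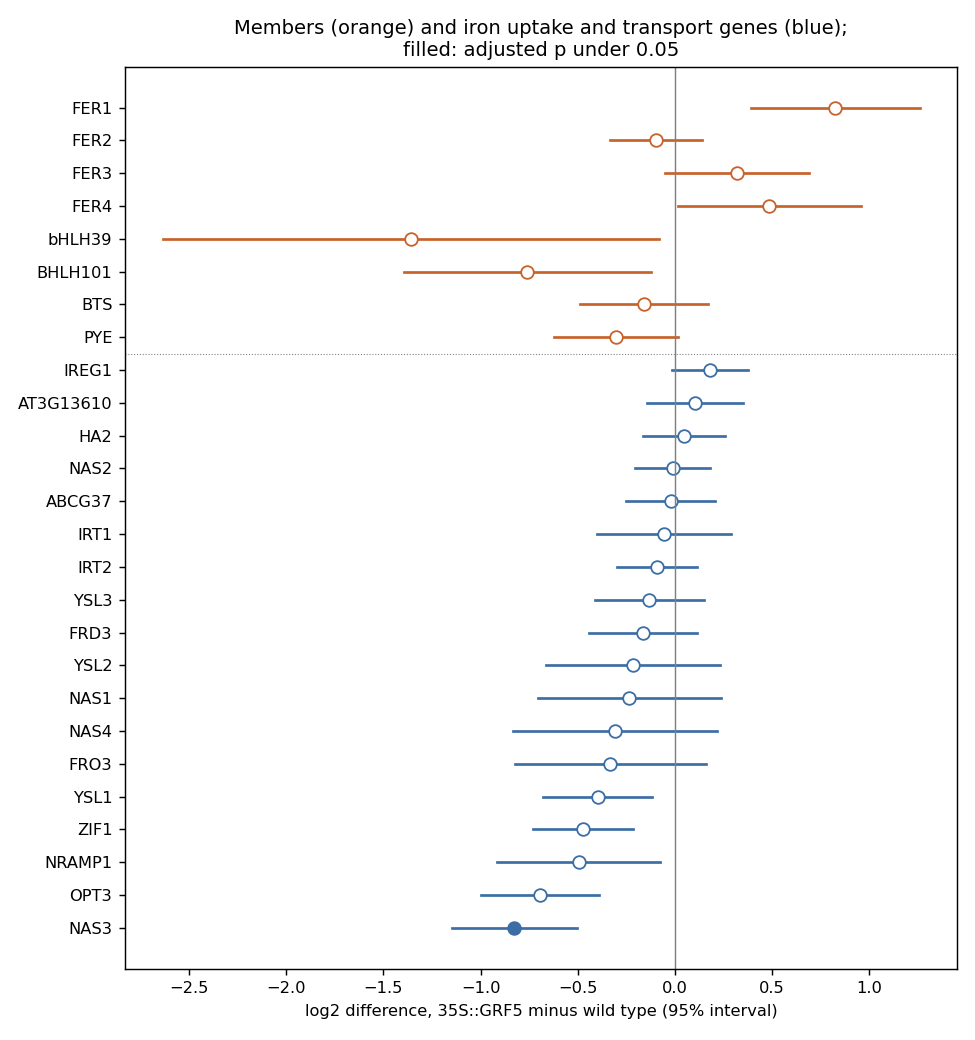
Log2 difference, 35S::GRF5 minus wild type, with its 95% interval for the 8 genes (orange) and for the 18 measured genes of iron uptake and transport (blue), filled where the adjusted p is under 0.05. NAS3, at -0.83, is the filled point, and 15 of the 18 transport genes lie left of 0.

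The 12 other iron regulators measured held 0 called genes and had a median difference of 0.10. Of the 12, 1 was lower at an unadjusted p under 0.05, as were 5.97% of all loci. That gene, AT1G47400, which keeps its locus code here, read 9.38, 9.34 and 8.84 in wild type and 7.63, 9.03 and 8.63 in 35S::GRF5, lowest in replicate 1 of the line like the Ib bHLH genes. Its difference was -0.76 (-1.43 to -0.08; adjusted p = 0.267), or -0.36 without that array. The transcription factor gene bHLH104, whose product activates the Ib bHLH genes and is a target of BTS, differed by 0.19 (adjusted p = 0.35). Among 3 genes known to act on ferritin transcription 0 were called and 1 was higher at an unadjusted p under 0.05, as were 9.49% of all loci. That gene, TIC, a clock-related repressor of FER1, differed by 0.25 (0.04 to 0.46; adjusted p = 0.241), and PHL1, a phosphate starvation factor that binds the FER1 promoter with its relative PHR1, by -0.26 (adjusted p = 0.383).

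The remaining lists held 0 called genes. At an unadjusted p under 0.05, 9.49% of all loci were higher and 5.97% lower, and the counts of 1 or 2 below are too small to set apart from those shares. Of 11 vacuolar and organellar iron transport genes, 1 was lower at an unadjusted p under 0.05: NRAMP4, which releases iron from the vacuole, with a difference of -0.31 (adjusted p = 0.293), or -0.18 without 35S::GRF5 replicate 1, where its unadjusted p was 0.139. TIC21, also known as the chloroplast iron permease PIC1, differed by 0.21 (adjusted p = 0.335). Of 13 genes of iron-sulfur cluster assembly, 2 were higher at that p: ABCI8, the SUFB scaffold subunit of plastids, by 0.23 (adjusted p = 0.253), and NFS1, the mitochondrial cysteine desulfurase, by 0.20 (adjusted p = 0.301). Of 13 genes for superoxide dismutases and hydrogen peroxide removal, 1 was lower, the catalase gene CAT2, with a difference of -0.35 (adjusted p = 0.209); CSD1, a copper/zinc superoxide dismutase, differed by -0.13 (adjusted p = 0.501). The medians of these 3 lists were 0.0062, 0.06 and 0.10.

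Loci with the profiles most like those of FER1 and BHLH101 were picked by the root mean square distance over the 6 arrays, each profile centred on its own mean. FER1 was used as the gene with the smallest p and BHLH101 as the Ib bHLH factor with the smallest p. Loci were picked for profiles like these, so the sign of their differences and their lowest or highest arrays follow from the pick. The values below describe these loci and test nothing about FER1 or BHLH101. The nearest 5 to FER1, at distances of 0.194 to 0.236 log2 units, were MYB29, SAB, AT1G15800, iqd17 and NPY5, with differences of 0.77, 0.66, 0.54, 0.46 and 0.56. Of these, MYB29 (adjusted p = 0.0398) and SAB (0.0218) passed the test over all loci. With own variance their adjusted p was 0.299 and 0.231, but 0 loci of the whole table were called under that setting. MYB29 lost the call with the replicate number as a block (0.0806). It also did in 5 of 6 fits that left out an array (0.106 to 0.124), all but that without 35S::GRF5 replicate 1. SAB lost the call in 4 of 6 (0.0653 to 0.0907), all but those without 35S::GRF5 replicates 1 or 2. The nearest 5 to BHLH101, at 0.134 to 0.170, were EXLB1, UF3GT, AT4G14090, CYP79B2 and SAG29, each with its lowest value in 35S::GRF5 replicate 1 and with differences of -0.59, -0.63, -0.82, -0.56 and -0.998. Without that array these were -0.28, -0.27, -0.59, -0.25 and -0.67. None of the 10 nearest loci belonged to the iron lists. Outside that rule, AT1G47400 was the third nearest of all loci to bHLH39 (0.555) and BHLH101 the sixth (0.629), both at larger distances than those above. BTS ranked 688, PYE 2349, FER2 5423, FER3 20508, FER1 20563 and FER4 20728. The value of bHLH39 was far lower in 35S::GRF5 replicate 1 than elsewhere, and that array was also the lowest for AT1G47400 and BHLH101. Shared regulation was not tested.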

How the data were processed

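Transcripts of 6 arrays were analysed, 3 of wild type and 3 of 35S::GRF5, grouped by their titles. The authors deposited log2 values. They were produced by RMA (background correction, matching of distributions between arrays, probe summary), a tool named without a version in the submitters' processing notes. The table has 1 row per Arabidopsis locus code. The map from probes to loci and the set of arrays normalised together are not given in the sources used here. Names came from a reference table of assembly TAIR10.1, which held 20508 of the 20777 loci. Depth has no meaning for arrays: their number limits the precision, and the 95% interval extended 0.232 log2 units (1.17-fold) each way for the median locus.

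Groups were compared with limma 3.58.1 in R 4.3.3 (lmFit, eBayes, two-sided). P-values were adjusted by Benjamini-Hochberg across the 20777 loci, with a threshold of 0.05 and no filter. Differences are given as the overexpressing line minus wild type. All 8 genes with a row were named. Of each list of other iron genes the called ones, or else the 2 with the smallest p, were named. The script was tested on simulated data. The labels do not say that repeats came from separate cultures, so p-values measure the spread between these samples. The genes and lists were chosen with earlier results of these data known. The 14 alternatives changed the block, filter, scaling, variance estimate, array weights or left out an array.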

Additional observations from a re-analysis of the deposited data

How the results depend on the processing

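Over 14 alternatives, 0 of the 8 ferritin and iron regulator genes changed direction or passed limma's threshold, FER2 being left out over loci above the median. At an unadjusted p under 0.05 there were 4 of the 8 with all arrays, 1 with trend and robust estimation, 1 with each gene's own variance and 1 to 5 without single arrays. The loci at that p, of 20777, were 3212 with all arrays, 3177 with trend and robust estimation, 2656 with own variance and 2300 to 3368 without single arrays. Centring arrays on their medians turned the split from 2 higher and 2 lower to 1 and 3. The replicate number as a block and quantile normalization also gave 1 and 3, and array weights gave 2 and 3. No share of all loci by direction is given for these settings. Non-overlapping groups were found for 1 of the 8, for 2 after quantile normalization and for 1 to 6 without single arrays, most of them without 35S::GRF5 replicate 2. The shares of all loci under these alternatives are not given here, so no background stands beside these counts. Of the 70 other iron genes 1 was called lower; 2 were with the replicate number as a block, arrays centred, quantile normalization, trend and robust estimation or array weights, 0 with own variance (limma's linear fit without moderation; 9.0 at an unadjusted p under 0.05) and 0 to 1 without single arrays. Loci called were 160 in all, 252 with trend and robust estimation, 294 with array weights, 0 with own variance (2656.0 at an unadjusted p under 0.05) and 17 to 186 without single arrays, lowest without wild type replicate 1. The cause of these shifts was not tested; a fit without an array or with own variance has fewer degrees of freedom. Over all loci, deviations of same-numbered arrays correlated at -0.053, 0.0583 and -0.106, which shows no pairing by replicate number but cannot exclude it for some genes. With that block FER1 had an adjusted p of 0.127 and OPT3 of 0.0377. Precision is limited by 3 arrays a group, and values without detection calls leave low genes unresolved.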
